A study of Arabidopsis thaliana with 12 samples.

Results

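Whole Arabidopsis thaliana seedlings that carry both the scrm-D allele and the mute mutation were compared with wild type, to describe across genes a seedling whose epidermis consists, per the labels, nearly entirely of meristemoids. The comparison uses the 3 arrays titled scrm-D;mute, the double mutant, and the 3 titled Col-0 WT, 6 of the 12 arrays of the series. All were chosen by title, and the 64 control probe sets were left out, so that 22746 probe sets were tested. The remaining 6 arrays hold 3 of scrm-D and 3 of spch, and they served for the shared estimate of the spread and for values given beside those of the double mutant. The 4 groups were scrm-D;mute, scrm-D, spch and Col-0 WT, all in the Col-0 ecotype, grown on MS plates after 2 days of cold at 4 °C, then at 21 °C with 18 h light and 6 h dark, and harvested at 1 pm at an age of 5 days. The labels name no other allele and no treatment, and they call the replicates, numbered 2, 3 and 4 in each genotype, biological. The labels do not name the alleles of mute and spch.

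Stomata are pores of the plant epidermis, each made of a pair of guard cells. They arise from a lineage in which a protodermal cell divides unequally and gives a small meristemoid, which can renew itself through further unequal divisions before it turns into a guard mother cell. The bHLH transcription factor SPCH starts this lineage, MUTE ends the self-renewal of the meristemoid, and FAMA completes guard cell formation. SCRM is their shared bHLH partner, and its dominant allele scrm-D drives epidermal cells into the lineage, which halts at the meristemoid without MUTE activity.

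Values are the deposited log2 expression values, where 1 unit is a 2-fold difference. Differences are double mutant minus WT on that log2 scale with their standard error (SE). Every adjusted p is limma's, by the Benjamini-Hochberg method over all 22746, and a gene is said to have risen or fallen where it is under 0.05. The background level of 4.99 is the 95th percentile of bacterial control probe sets on genotypes that lack their transcript, and a fold is written as at least where 1 group's mean lay under it. RNA came from whole seedlings, so fewer cells of a type and less RNA per cell cannot be told apart. No detection calls or depths exist for arrays, and 3 arrays a group limit the precision. Measured is said of a gene that the annotation used here pairs with a probe set of its own. Family counts cover only genes with a matching symbol. Other members may lie among the 8730 probe sets that the annotation leaves unnamed, so a gene not measured here may still be on the array.

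Some control probe sets differed between the arrays compared. The 25S rRNA control read 10.84, 11.06 and 6.96 in the double mutant, against 7.27, 7.50 and 6.56 in WT, so replicates 2 and 3 of the double mutant stood well above the other 4 arrays. Hybridization controls averaged 10.21, 10.64 and 9.46 in the double mutant, against 10.14, 10.21 and 9.40 in WT, with replicate 4 lowest in both. The bacterial phe control, which read 13.07 to 13.09 on the scrm-D arrays, read 5.15 on replicate 4 of the double mutant and 4.15 to 4.34 on the other 5 arrays compared. The 3′ minus 5′ difference of the actin control overlapped between the groups, at 0.70 to 0.92 in the double mutant and 0.75 to 1.06 in WT. With the 25S value as a covariate, 3736 probe sets were called in place of 6297. The part of these control differences in the results was not tested further.

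**Figure D1:**
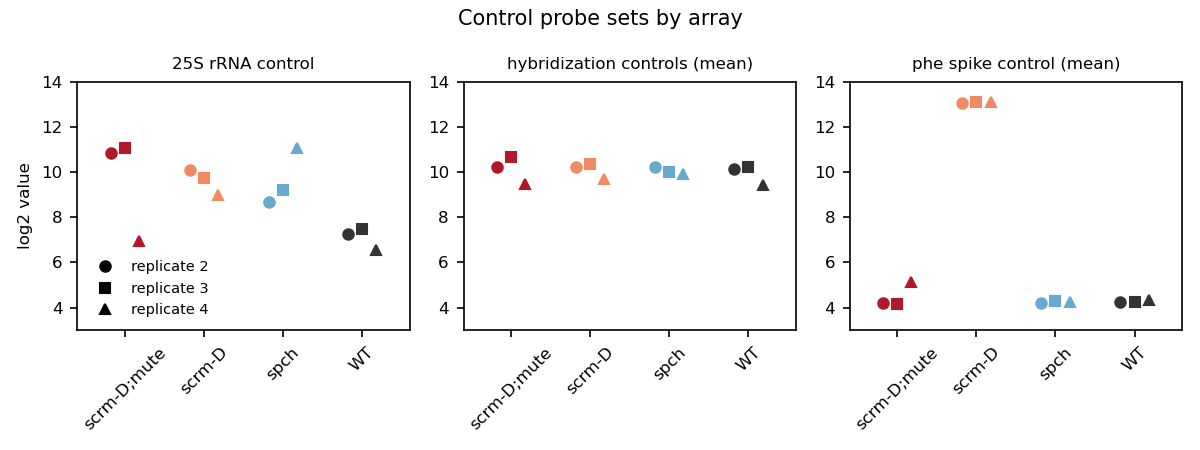
Control probe sets by array, as log2 values on the vertical axis, with the 4 genotypes on the horizontal axis and 1 marker per array (circle, square and triangle for replicates 2, 3 and 4). The 25S rRNA control lies at 10.84 and 11.06 on double mutant replicates 2 and 3, and at 6.96 on replicate 4, near the WT arrays at 6.56 to 7.50. The phe control lies near 13 on the scrm-D arrays and at 5.15 on double mutant replicate 4.

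Transcripts of the factors that start the lineage and end the meristemoid state were among the highest rises, and the 2 lineage genes that fell were the guard cell factor FAMA and the peptide gene EPFL9. SPCH (AT5G53210) read 10.89, 10.85 and 10.56 in the double mutant, against 6.15, 6.71 and 6.22 in WT. Every double mutant array lay more than 3 units above every WT array, and the difference was 4.41 ± 0.23 SE (21.2-fold, adjusted p = 6.6e-08). MUTE (AT3G06120) read 10.998, 10.61 and 10.72 in the double mutant, against 4.42, 4.49 and 4.52 in WT. Its WT values all lay under the background level, so that the transcript labelled as mutated was the second largest rise among genes with 1 probe set, at least 55.2-fold higher (difference 6.30 ± 0.21 SE, adjusted p = 2.38e-09). The position of the mute lesion relative to this probe set was not known here, so its level cannot check the label. SCRM and its paralogue SCRM2 were not analysed here.

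BRXL2 (AT3G14000), a member of the BREVIS RADIX family whose proteins take part in the polarity of unequally dividing lineage cells, read 7.34, 7.62 and 7.23 in the double mutant, against 4.89, 5.71 and 5.02 in WT. The groups did not overlap, and the gene rose by 2.19 ± 0.21 SE (adjusted p = 1.29e-05). FAMA (AT3G24140) read 6.10, 5.64 and 5.94 in the double mutant, against 6.79, 6.84 and 7.07 in WT, a fall of 2.01-fold (difference −1.01 ± 0.18 SE, adjusted p = 0.00113). In scrm-D, whose epidermis consists of guard cells per the labels, FAMA read 9.63, 9.63 and 9.41. EPFL9 (AT4G12970), which encodes stomagen, a peptide made by the inner leaf tissue that promotes stomatal formation, read 7.11, 7.06 and 6.12 in the double mutant, against 9.10, 9.20 and 8.86 in WT. Replicate 4 was the lowest of the double mutant, all 3 lay below WT, and the fall was 4.89-fold (difference −2.29 ± 0.40 SE, adjusted p = 0.00106).

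Of 25 listed stomatal lineage genes 5 were measured by a probe set of their own, and 3 rose (SPCH, MUTE and BRXL2) and 2 fell (FAMA and EPFL9), with a median difference of 2.19. Over all 13350 genes with such a probe set, 24.7% were called, 13.2% higher and 11.5% lower, with a median difference of −0.0073, and the groups did not overlap for 38.5%. Every count of called list or family members is to be set beside these shares. Of 17 listed guard cell genes 3 were measured. Beside FAMA these were GC1 (AT1G22690), a gene known for its guard cell promoter, and BLUS1 (AT4G14480), a kinase of stomatal opening in blue light. GC1 read 8.98, 8.21 and 6.84 in the double mutant, against 10.74, 10.38 and 10.86 in WT, and every double mutant array lay below WT, the lowest being replicate 4. Its difference of −2.65 ± 1.08 SE did not pass (adjusted p = 0.09), and the fit shares its spread with spch replicate 4, where GC1 read 4.31 against 9.70 and 9.64 on the other spch arrays. Without that array the adjusted p was 0.000335, and 0.00321 with the double mutant and WT arrays alone. BLUS1 read 6.21, 5.85 and 6.16 in the double mutant, against 6.95, 6.42 and 6.62 in WT, without overlap. Its difference of −0.59 ± 0.33 SE gave adjusted p = 0.215, 0.0191 without spch replicate 4 and 0.0291 with the 6 arrays alone.

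**Figure D2:**
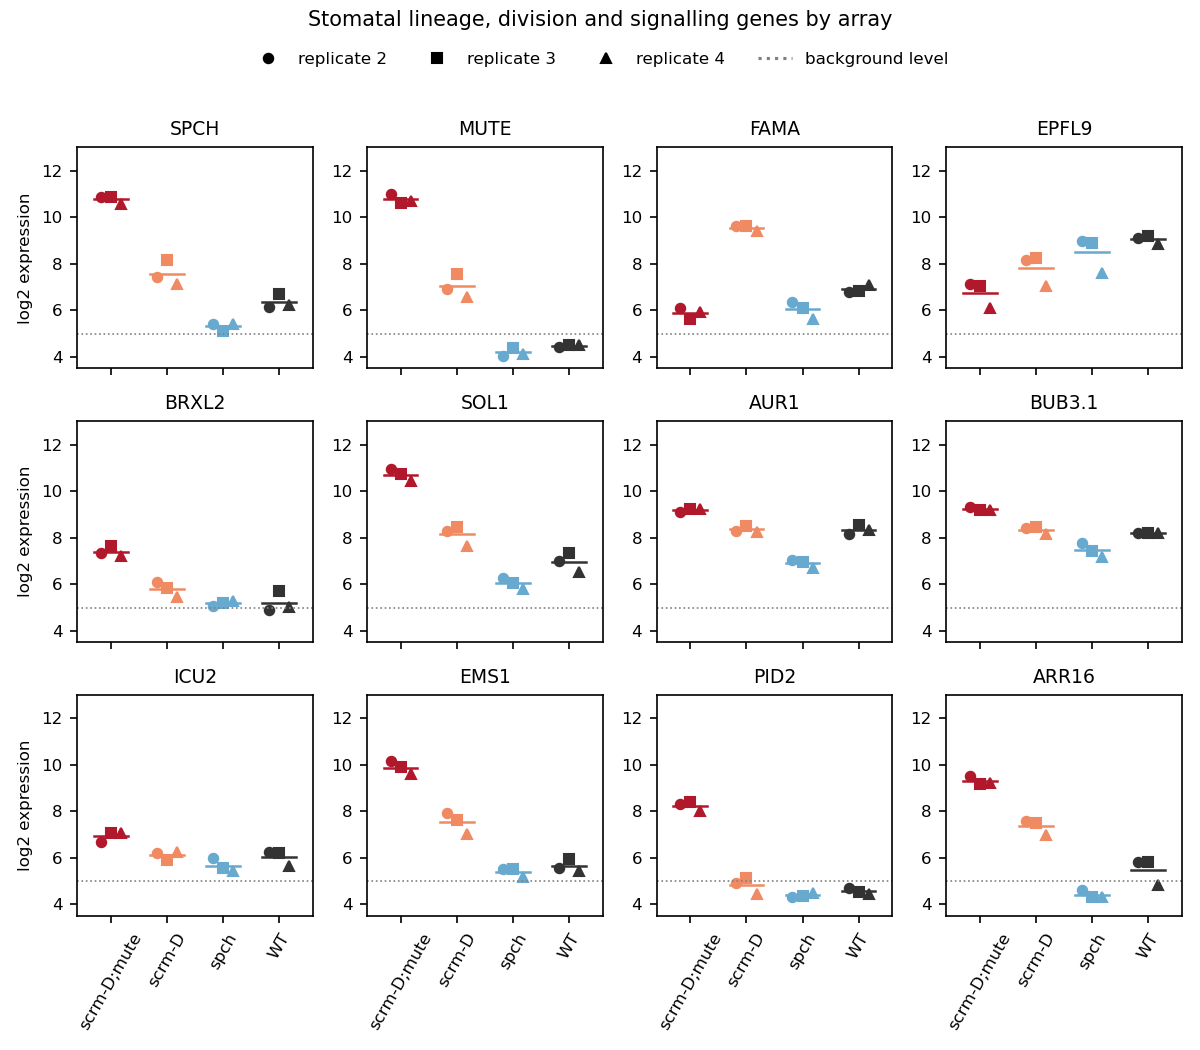
Log2 expression of 12 genes on each array (markers as for the controls), by genotype, with the mean as a horizontal line and the background level of 4.99 dotted. SPCH, MUTE, BRXL2, SOL1, EMS1, PID2 and ARR16 lie higher on every double mutant array than on any WT array, by differences of 2.19 to 6.30, while FAMA and EPFL9 lie lower.

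The change extended over a large share of the array. Limma called 6297 of 22746 probe sets (27.7%), 3208 higher (14.1%) and 3089 lower (13.6%) in the double mutant. Which direction held more calls depended on the scaling, with 2528 higher and 3568 lower after centring on array medians, and 2946 higher and 3149 lower after a further quantile normalization. Groups did not overlap for 9422 probe sets (41.4%). Among the called genes with a probe set of their own, 423 rose (3.17%) and 423 fell (3.17%) at least 2-fold. The larger changes lay mostly on the side of the rises, with 146 genes higher and 71 lower at 4-fold or more, 65 and 17 at 8-fold or more, and 28 and 3 at 16-fold or more. Of the 1766 genes that rose, 162 had a WT mean under the background level and a double mutant mean at or above it. The opposite held for 171 of the 1536 that fell. Both means lay under that level for 132 of the 3302 called genes, which have no interpretable fold.

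**Figure D3:**
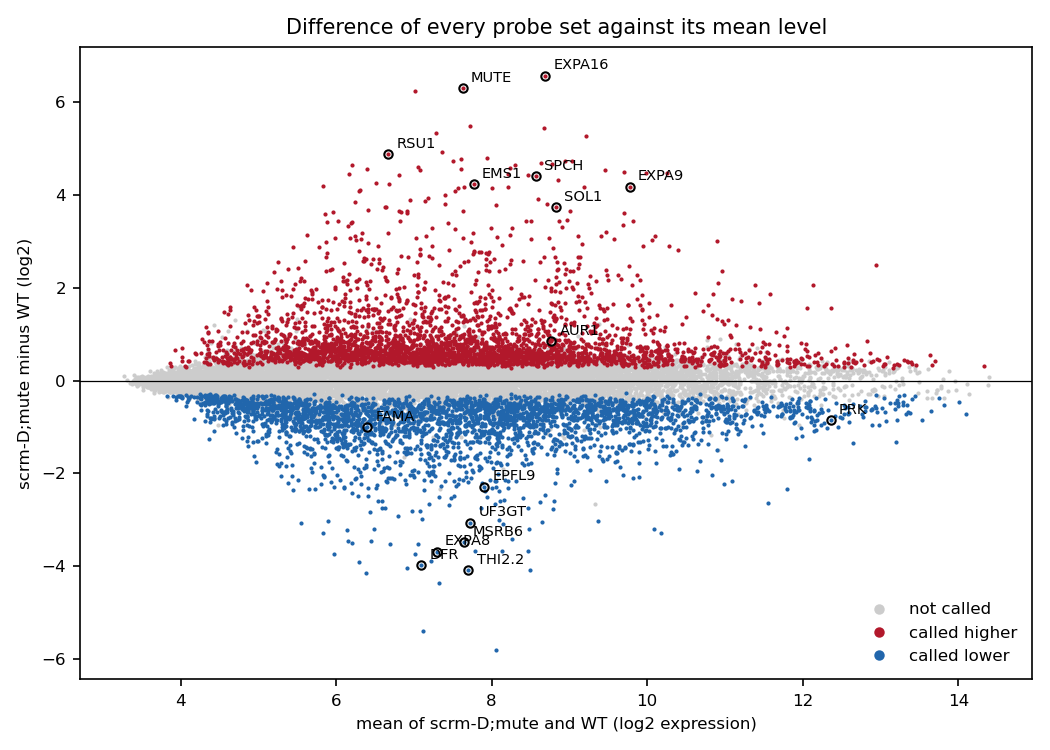
Difference of each of the 22746 probe sets (double mutant minus WT, log2) against the mean of both groups (log2 expression), with called probe sets in red (3208 higher) and blue (3089 lower) and 16 named genes circled. The rises reach 6.57, for EXPA16, and the falls −5.82.

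The measured genes of mitosis rose, by less than SPCH, MUTE and BRXL2. All 4 measured genes of 28 listed for G2 and mitosis rose, with differences between 0.78 and 1.03 and a median of 0.91. Of all genes 13.2% rose. AUR1 (AT4G32830) and AUR2 (AT2G25880), Aurora kinases of the spindle and the division plane, rose by 0.86 (adjusted p = 0.000468) and 0.78 (adjusted p = 0.0105). AUR3 (AT2G45490), the Aurora kinase of the centromere, rose by 0.96 (adjusted p = 0.000431). BUB3.1 (AT3G19590), a protein of the spindle checkpoint, read 9.31, 9.19 and 9.20 in the double mutant, against 8.20, 8.18 and 8.22 in WT, a rise of 2.05-fold with no overlap (difference 1.03 ± 0.14 SE, adjusted p = 0.000163).

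Among 24 listed genes of DNA replication 3 were measured and 2 rose. PRL (AT4G02060), the MCM7 subunit of the replicative helicase, rose by 0.71 (adjusted p = 0.00492), and ICU2 (AT5G67100), the catalytic subunit of DNA polymerase alpha, rose by 0.91 (adjusted p = 0.00374). CENH3 (AT1G01370), the centromeric histone, differed by 0.45 ± 0.18 SE and did not pass (adjusted p = 0.085, and 0.0482 without WT replicate 3). The only measured gene of 20 listed for G1 and cell cycle inhibition was SIM (AT5G04470), an inhibitor of cyclin-dependent kinases that promotes endoreduplication in trichomes. SIM read 7.24, 7.50 and 7.77 in the double mutant, against 8.21, 7.98 and 8.20 in WT and fell by 0.62 (adjusted p = 0.03). That call ended without double mutant replicate 2 or 3, without WT replicate 2 or 4 and with the 25S covariate (adjusted p = 0.0746 to 0.219).

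Other division genes that rose were chosen after their values were seen, so the size of their rises cannot be set against that of the listed genes. 3xHMG-box1 (AT4G11080) and 3xHMG-box2 (AT4G23800) encode proteins that bind chromosomes in mitosis. The first read 8.05, 8.09 and 7.90 in the double mutant, against 6.07, 6.46 and 5.77 in WT, a rise of 3.77-fold, and the second read 11.97, 11.55 and 11.18 in the double mutant, against 9.83, 9.75 and 9.44 in WT, a rise of 3.71-fold. Neither overlapped between the groups. TOPII (AT3G23890), DNA topoisomerase II, rose 3.19-fold (adjusted p = 3.61e-05), and WYR (AT5G55820), a relative of the INCENP partner of Aurora kinases, rose at least 1.71-fold (adjusted p = 0.00173). SOL1 (AT3G22760), a relative of the CXC-domain protein TSO1 that acts in fate transitions of the stomatal lineage, read 10.93, 10.73 and 10.43 in the double mutant, against 7.01, 7.32 and 6.52 in WT. It was 13.4-fold higher (difference 3.75 ± 0.24 SE, adjusted p = 3.6e-07).

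Families of chromatin and protein turnover showed smaller changes. Of 7 chromatin remodelling genes named CHR, 3 rose and none fell (median 0.35), 42.9% called against the 24.7% of all genes. CHR24 and CHR17 rose by 0.73 and 0.69 and CHR18 by 0.43, and all 3 calls ended with the 25S covariate. The CHR17 call also ended without double mutant replicate 2 or WT replicate 4, and the CHR18 call without double mutant replicate 3, WT replicate 3 or WT replicate 4 or without replicate 4 of every genotype. Adjusted p then lay between 0.05 and 0.2 for these 3 genes. Of 6 histone genes (16.7% called) the linker histone gene HIS1-3 (AT2G18050), known from drought responses, was the only one called, at least 3.22-fold higher. Its call ended without double mutant replicate 3 and with the 25S covariate (adjusted p = 0.0528 to 0.145). Ubiquitin-conjugating enzymes had 4 of 12 higher and 1 lower, 41.7% called. The fall, of UBC29, was lost without double mutant replicate 2 (adjusted p = 0.0558), and the rise of UBC37 without replicate 4 of every genotype (adjusted p = 0.062). Among them UBC20 (AT1G50490), an enzyme linked to the turnover of mitotic cyclins, rose by 0.60 (adjusted p = 0.00486).

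Receptors, peptides and hormone regulators held some of the largest rises. EMS1 (AT5G07280), a leucine-rich repeat receptor kinase known for specifying the tapetum of the anther, read 10.16, 9.91 and 9.59 in the double mutant, against 5.57, 5.97 and 5.42 in WT. It rose 18.8-fold with no overlap (difference 4.23 ± 0.22 SE, adjusted p = 6.6e-08), and scrm-D lay between, at 7.92, 7.63 and 7.03. This gene was chosen after its values were seen. ACR4 (AT3G59420), the CRINKLY4 receptor kinase of the epidermis and the only measured gene of 25 listed for the epidermis, read 8.002, 7.67 and 7.22 in the double mutant, against 6.40, 6.50 and 6.46 in WT and rose 2.26-fold (adjusted p = 0.00265). GLR2.7 (AT2G29120), a glutamate receptor-like channel, rose at least 4.48-fold and was the only one of 8 such genes called, 12.5% against the 24.7% of all genes.

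In the cytokinin list ARR16 (AT2G40670), a type-A response regulator that feeds back on cytokinin signalling, read 9.53, 9.17 and 9.23 in the double mutant, against 5.82, 5.82 and 4.85 in WT. It rose 14.1-fold (difference 3.81 ± 0.24 SE, adjusted p = 3.55e-07), and spch lay below WT, at 4.60, 4.33 and 4.31. ARR15, the other measured gene of 11 listed and also a type-A regulator, differed by −0.38 (adjusted p = 0.097). No other of 6 measured response regulators was called, which made 16.7% called against the 24.7% of all genes.

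In the auxin list 1 of 6 measured genes rose and 3 fell, with a median of −0.46. The riser was PID2 (AT2G26700), a protein kinase related to PINOID, which steers auxin transporters. PID2 read 8.33, 8.39 and 8.02 in the double mutant, against 4.69, 4.55 and 4.47 in WT, so WT lay under background and the rise was at least 9.56-fold (difference 3.68 ± 0.17 SE, adjusted p = 1.91e-08). In scrm-D and spch PID2 also stayed near background, at 4.92, 5.16 and 4.44 and 4.34, 4.36 and 4.51. IAA29 (AT4G32280), an auxin-induced repressor of auxin signalling, fell at least 1.72-fold (adjusted p = 0.000648).

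GH3.3 (AT2G23170), an auxin-conjugating enzyme, fell by 0.98 (adjusted p = 0.0117), although replicate 4 of the double mutant, at 6.71, lay above the lowest WT value of 6.67. YUC2 (AT4G13260), an enzyme of auxin synthesis, fell by 0.56 (adjusted p = 0.0166). The GH3.3 call ended without double mutant replicate 2 and with the 25S covariate (adjusted p = 0.0537 to 0.139), and the YUC2 call without double mutant replicate 2 or 4 or WT replicate 3 (adjusted p = 0.0535 to 0.0594). GH3.5 and YUC4 differed by 0.07 and −0.36 and did not pass, though YUC4 passed without WT replicate 2 (adjusted p = 0.0142).

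Signal peptides split. Of 6 CLE peptide genes 1 rose and 4 fell (median −0.48), 83.3% called against the 24.7% of all genes. CLE27 (AT3G25905) read 7.20, 7.86 and 7.17 in the double mutant, against 5.33, 5.57 and 5.42 in WT and rose 3.92-fold (adjusted p = 3.15e-05). CLE41 (AT3G24770) and CLE44 (AT4G13195), which encode the phloem-derived peptide that keeps vascular stem cells dividing, fell by 1.24 and 0.83. Of 11 RALF-like peptide genes 2 rose and 4 fell (54.5% called), and the largest change was in RALFL27 (AT3G29780), which fell at least 2.18-fold (adjusted p = 3.64e-05). The RALFL33 fall was lost with the 25S covariate (adjusted p = 0.117), and that of RALFL24 also without double mutant replicate 2 or WT replicate 3 or 4 (adjusted p = 0.0517 to 0.202).

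Wall-loosening genes changed in both directions, and the single largest rise of all named genes was in this group. Expansins loosen the wall of growing cells without cutting its polymers. EXPA16 (AT3G55500) read 11.70, 12.15 and 12.07 in the double mutant, against 5.18, 4.94 and 6.08 in WT, a rise of 95.2-fold (difference 6.57 ± 0.24 SE, adjusted p = 3.67e-09). The lowest double mutant array lay more than 5 units above the highest WT array, and scrm-D was high as well, at 10.21, 10.52 and 10.14. EXPA9 (AT5G02260) read 11.56, 12.01 and 12.03 in the double mutant, against 7.97, 7.56 and 7.53 in WT and rose 18.1-fold, with scrm-D at 8.60, 9.29 and 8.93. EXPA8 (AT2G40610) went the other way, with 5.76, 5.53 and 5.06 in the double mutant, against 9.53, 9.44 and 8.45 in WT, a fall of 12.9-fold (difference −3.69 ± 0.34 SE, adjusted p = 8.51e-06). It was as low in scrm-D, at 5.77, 5.80 and 4.95. In all, 2 of 14 measured expansins rose and 4 fell, 42.9% called against the 24.7% of all genes, and the median of −0.17 lay near that of all genes. The root hair expansins EXPA7 and EXPA18, the measured root markers, differed by −0.48 and −0.20 and were not called.

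XTH enzymes cut and rejoin xyloglucan chains. XTH16 (AT3G23730) read 11.67, 11.62 and 11.44 in the double mutant, against 8.40, 8.78 and 8.49 in WT and rose 8.12-fold (adjusted p = 4.6e-06), whereas XTH32 (AT2G36870) and XTH20 (AT5G48070) fell 2.94-fold and 2.69-fold, and the other 6 of 9 measured were not called. The pectin methylesterase gene ATPMEPCRB (AT4G02330), also known as PME41, read 8.16, 8.52 and 10.12 in the double mutant, against 6.70, 6.12 and 6.28 in WT, and its replicate 4 was the highest of the double mutant, near scrm-D at 9.57, 9.78 and 10.17. It rose 5.92-fold (adjusted p = 0.000448). EXLB1 (AT4G17030), an expansin-like gene, fell 4.35-fold, and the endoglucanase genes GH9B8 (AT2G32990) and GH9C2 (AT1G64390) fell 4.31-fold and 4.09-fold. These last 4 genes were chosen after their values were seen.

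Genes that modify or make wall polymers changed in both directions. The trichome birefringence-like family, which holds acetyltransferases of wall polysaccharides, had 8 of 22 members lower and 2 higher, 45.5% called against the 24.7% of all genes. TBL45 (AT2G30010) read 6.51, 6.55 and 6.99 in the double mutant, against 9.16, 9.04 and 9.41 in WT, a fall of 5.73-fold with no overlap (adjusted p = 1.27e-06), and TBL26 (AT4G01080) and TBL36 (AT3G54260) fell 4.08-fold and 3.52-fold. In scrm-D TBL45 read 7.34, 6.97 and 6.69. Among 8 cellulose synthases and relatives, CSLC5 (AT4G31590) rose by 0.85, and CSLA03 (AT1G23480) and CSLC04 (AT3G28180) fell by 1.19 and 0.85. The CSLC5 call ended without replicate 4 of every genotype (adjusted p = 0.0652), and those of CSLA03 and CSLC04 with the 25S covariate (adjusted p = 0.0559 and 0.0932).

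Genes of the cytoskeleton and of the cell cortex also split within families. TRM proteins recruit the TON1 complex that arranges cortical microtubules and the preprophase band. Of 15 genes with a TRM symbol 2 rose and 5 fell, 46.7% called against the 24.7% of all genes. The symbol pattern also took in TRM82, which is named for a tRNA methyltransferase subunit and not for this family. TRM34 (AT3G24630) read 7.07, 7.19 and 7.06 in the double mutant, against 4.85, 4.71 and 4.64 in WT and rose at least 4.34-fold (adjusted p = 6.6e-07), and TRM22 (AT1G67040) fell at least 2.3-fold. IQD proteins bind calmodulin and microtubules. IQD16 (AT4G10640) read 7.74, 7.88 and 7.56 in the double mutant, against 5.57, 5.28 and 5.79 in WT and rose 4.53-fold (adjusted p = 2.38e-06), while 4 of the 11 measured fell, led by IQD24 (AT5G07240) at −1.35. Of the 11, 45.5% were called. The symbol of a further family member is written iqd21 (AT3G49260) and was not counted with the family. It read 11.45, 11.56 and 11.16 in the double mutant, against 8.70, 8.70 and 8.08 in WT, a rise of 7.45-fold (adjusted p = 7.71e-06), and was chosen after its values were seen.

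Of 10 NET genes, whose products bind actin at membranes, NET3C (AT2G47920) rose at least 3.08-fold (adjusted p = 3.72e-05) and NET3A (AT1G03470) rose 2.23-fold (adjusted p = 0.00137). TET2 (AT2G19580), a tetraspanin of the plasma membrane, rose 3.47-fold (adjusted p = 2.93e-05), whereas 2 of 15 tetraspanins fell, of which TET6 lost its call without double mutant replicate 2, without WT replicate 4 and with the 25S covariate (adjusted p = 0.0725 to 0.164). NET genes and tetraspanins each had 20% called, under the 24.7% of all genes. No tubulin rose, and TUB5 and TUB9, 2 of the 7 tubulin genes measured, fell by 0.63 and 0.51. The share called was 28.6%, near that of all genes. Both tubulin calls ended with the 25S covariate, and that of TUB9 also without double mutant replicate 2 and without replicate 4 of every genotype (adjusted p = 0.109 for TUB5 and 0.0521 to 0.105 for TUB9).

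Listed photosynthesis genes were lower by less than 2-fold. Of 35 listed genes 6 were measured and 4 fell, with a median of −0.63. PRK (AT1G32060) and SBPASE (AT3G55800), enzymes of the Calvin cycle, fell by 0.86 (adjusted p = 0.000807) and 0.82 (adjusted p = 0.00168). LHCB4.1 (AT5G01530) and LHCB4.2 (AT3G08940), minor antenna proteins of photosystem II, fell by 0.46 and 0.81. RCA and LHCB4.3 differed by −0.23 and −0.11 and did not pass (adjusted p = 0.0675 and 0.72). Both measured genes of chlorophyll synthesis, CHLM (AT4G25080) and PORB (AT4G27440), fell by 0.66 and 0.72.

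Some thylakoid genes that fell were chosen after their values were seen, so the size of their falls cannot be set against that of the listed genes. NdhN (AT5G58260) and NdhL (AT1G70760), nuclear-encoded subunits of the chloroplast NDH complex, fell 3.25-fold and 2.92-fold. NdhN read 8.34, 8.54 and 8.84 in the double mutant, against 10.28, 10.11 and 10.43 in WT. TAPX (AT1G77490), the thylakoid ascorbate peroxidase, fell 2.85-fold (adjusted p = 0.000101). Of 69 genes of the plastid genome itself, whose transcripts mostly lack the poly(A) tail that the labelling primes on, 4 fell and none rose, with a median of −0.17. This was 5.8% called, under the 24.7% of all genes. SWEET11 (AT3G48740), a sucrose exporter of the phloem, fell by 0.85, and of 17 sugar transporters 4 fell and 1 rose, 29.4% against the 24.7% of all genes. SWEET17, one of the 4, lost its call without double mutant replicate 2 or 3, without WT replicate 4 and with the 25S covariate (adjusted p = 0.0659 to 0.247). ATSPS4F (AT4G10120), a sucrose phosphate synthase, read 7.02, 7.30 and 7.32 in the double mutant, against 9.20, 8.44 and 9.48 in WT, a fall of 3.54-fold, and was chosen after its values were seen.

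Anthocyanin genes fell most among the lists. Anthocyanins are the red pigments of seedlings, and 4 of the 5 measured genes of 19 listed fell, with a median of −2.84. DFR (AT5G42800), dihydroflavonol reductase, read 5.38, 5.41 and 4.53 in the double mutant, against 9.55, 9.27 and 8.43 in WT, a fall of 15.7-fold (difference −3.98 ± 0.40 SE, adjusted p = 1.58e-05). The later enzymes UF3GT (AT5G54060), UGT75C1 (AT4G14090) and 5MAT (AT3G29590), which add sugars and malonate to the pigment, fell 8.37-fold, 7.18-fold and at least 3.38-fold. UGT78D2, which also acts on flavonols, differed by −0.60 ± 0.21 SE and did not pass (adjusted p = 0.0543), but passed in 9 of the 16 alternatives, such as those without WT replicate 4 or spch replicate 4 (adjusted p = 0.0371 and 0.0189). None of the 4 called genes overlapped between the groups. DFR was lower than WT in scrm-D and spch too, at 6.56, 6.36 and 6.08 and 6.19, 6.34 and 4.77.

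Defence and stress genes were mixed, and double mutant replicate 4 stood highest in several that rose. Of 6 measured WRKY factors 3 rose and none fell (median 0.82), 50% called against the 24.7% of all genes. WRKY6 (AT1G62300), known from senescence and defence, read 9.54, 9.19 and 9.38 in the double mutant, against 7.11, 6.79 and 6.99 in WT and rose 5.3-fold (adjusted p = 7.61e-06), and WRKY47 (AT4G01720) rose 2.47-fold. WRKY6 was high in scrm-D too, at 9.13, 8.89 and 9.08. WRKY53 (AT4G23810), a senescence regulator, read 6.29, 6.39 and 7.28 in the double mutant, against 5.97, 4.94 and 5.70 in WT. Its rise of 1.12 (adjusted p = 0.0412) was lost without double mutant replicate 3 or 4, without WT replicate 3 or 4, and without replicate 4 of every genotype (adjusted p = 0.0598 to 0.156).

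The defensin gene PDF1.4 (AT1G19610) read 9.09, 8.73 and 10.26 in the double mutant, against 4.60, 4.58 and 5.07 in WT, a rise of at least 20.7-fold, with scrm-D at 9.79, 9.39 and 10.16. In contrast 5 of the 17 measured genes taken by the symbol pattern for thionins and defensins fell, and 35.3% were called in either direction. That pattern also took in PDF1A and PDF1B, which are named for peptide deformylases and not for defensins. THI2.2 (AT5G36910), a thionin, read 5.90, 5.62 and 5.45 in the double mutant, against 9.58, 9.59 and 10.07 in WT, a fall of 17-fold (difference −4.09 ± 0.27 SE, adjusted p = 4.59e-07). It was low in scrm-D as well, at 6.52, 6.42 and 5.49, while spch lay above WT, at 11.27, 11.40 and 10.64. PDF2.1 fell 4.83-fold. PDF1.2 and THI2.1, the classic jasmonate markers, differed by −0.64 and −0.26 and did not pass.

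Of 23 measured cytochrome P450 genes, most of them of the CYP71B group, 3 rose and 3 fell, 26.1% against the 24.7% of all genes. The 3 that rose were CYP71B24 (AT3G26230) by at least 5.19-fold, CYP71B23 (AT3G26210) by 6.36-fold and CYP71B36 (AT3G26320) by at least 2.62-fold. CYP71B23 read 7.50, 7.87 and 9.42 in the double mutant, against 5.72, 5.58 and 5.48 in WT, again highest on replicate 4. Members of the CYP71B group resemble each other in sequence, and cross-hybridization between them was not tested. Of 10 autophagy genes, nearly all of them of the ATG8 group that coats autophagosomes, 4 rose and none fell, 40% called. ATG8B (AT4G04620) read 8.18, 8.43 and 8.28 in the double mutant, against 6.94, 6.59 and 6.73 in WT and rose 2.92-fold (adjusted p = 4.6e-05). ATG8C rose by 0.54 (adjusted p = 0.0371), a call that ended in 9 of the 16 alternatives, among them those without double mutant replicate 3 or any single WT array (adjusted p = 0.0521 to 0.318).

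SCRM, also known as ICE1, is known to act in the cold response. Of 7 measured genes listed for that response, 1 fell and 6 were not called (median −0.47), 14.3% called against the 24.7% of all genes. COR15A (AT2G42540) and COR15B (AT2G42530), chloroplast proteins of freezing tolerance, were lower on average without passing, with differences of −1.91 ± 0.69 and −2.01 ± 0.78 SE (adjusted p = 0.0569 and 0.0752). COR15A passed in 8 of the 16 alternatives and COR15B in 7, with adjusted p = 0.0164 and 0.0129 under the 25S covariate. COR15A passed without double mutant replicate 3 (adjusted p = 0.0413), and COR15B without double mutant replicate 2 or WT replicate 4 (adjusted p = 0.0452 and 0.0351). COR15A read 7.66, 8.14 and 5.77 in the double mutant, against 9.46, 9.51 and 8.32 in WT, replicate 4 being lowest in both groups. COR47 (AT1G20440) fell by 0.43 (adjusted p = 0.00646), and ZAT10 differed by −1.22 (adjusted p = 0.151). COR27 differed by 0.63 and passed without double mutant replicate 3 (adjusted p = 0.0886 in the fit of all arrays and 0.0182 without it).

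Serine carboxypeptidase-like genes had 9 of 29 lower and none higher, 31.0% called against the 24.7% of all genes. The falls were led by scpl31 (AT1G11080), at least 3.1-fold lower, and scpl25 (AT3G02110), 2.58-fold lower. In spch scpl31 was low as well, at 4.66, 4.52 and 4.34. Subtilases, which process secreted proteins, had 2 of 7 higher, 28.6% called. SBT1.3 (AT5G51750) read 12.55, 12.40 and 12.30 in the double mutant, against 10.36, 10.49 and 10.21 in WT, a rise of 4.17-fold (adjusted p = 6.15e-06), and the call of the other, SBT3.12, ended without double mutant replicate 2, without WT replicate 2 or 4 and with the 25S covariate (adjusted p = 0.0542 to 0.264). UDP-glycosyltransferases had 3 of 47 higher and 7 lower, 21.3% called. The UGT84A1 call ended with the 25S covariate (adjusted p = 0.134), and that of UGT84A3 also without double mutant replicate 4 or WT replicate 3 or 4 (adjusted p = 0.0669 to 0.115). In the same family UGT87A2 (AT2G30140), which acts on flowering time, rose 5.12-fold. It was as high in scrm-D, at 10.28, 10.01 and 10.17, and in spch, at 9.91, 9.74 and 10.66. MADS-box factors, mostly known from flowers and seeds, had 3 of 40 called, 7.5% against the 24.7% of all genes. AGL87 (AT1G22590) fell by 1.44, and AGL18 rose by 0.61. For AGL62, the other gene called, both means lay under background. The AGL18 call ended without double mutant replicate 2, without WT replicate 3 or 4, without replicate 4 of every genotype and with the 25S covariate (adjusted p = 0.0641 to 0.164).

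Further families held single large changes, in both directions. Among methionine sulfoxide reductases, which repair oxidised proteins, MSRB6 (AT4G04840) read 6.18, 5.70 and 5.83 in the double mutant, against 9.48, 9.27 and 9.42 in WT, a fall of 11.2-fold (adjusted p = 3.4e-06), and the bZIP factor gene BZIP61 (AT3G58120) read 6.21, 5.85 and 5.80 in the double mutant, against 8.38, 8.36 and 8.20 in WT, a fall of 5.14-fold (adjusted p = 6e-07). In scrm-D MSRB6 read 6.32, 6.59 and 6.68, and BZIP61 read 6.93, 7.20 and 6.75. Of 14 bZIP factors 3 fell and none rose, 21.4% called against the 24.7% of all genes. The call of bZIP52, one of the 3, ended without any single double mutant array, without WT replicate 2 or 4, with the 6 arrays alone and with the 25S covariate (adjusted p = 0.0508 to 0.224). Among 14 glutathione transferases GSTU26 (AT1G17190) rose 7.27-fold and 3 fell, GSTU22 (AT1G78340) by 1.55. Their share called was 28.6%, near that of all genes. CML23 (AT1G66400), a calmodulin-like protein, rose 6.27-fold (adjusted p = 1.52e-05).

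**Figure D4:**
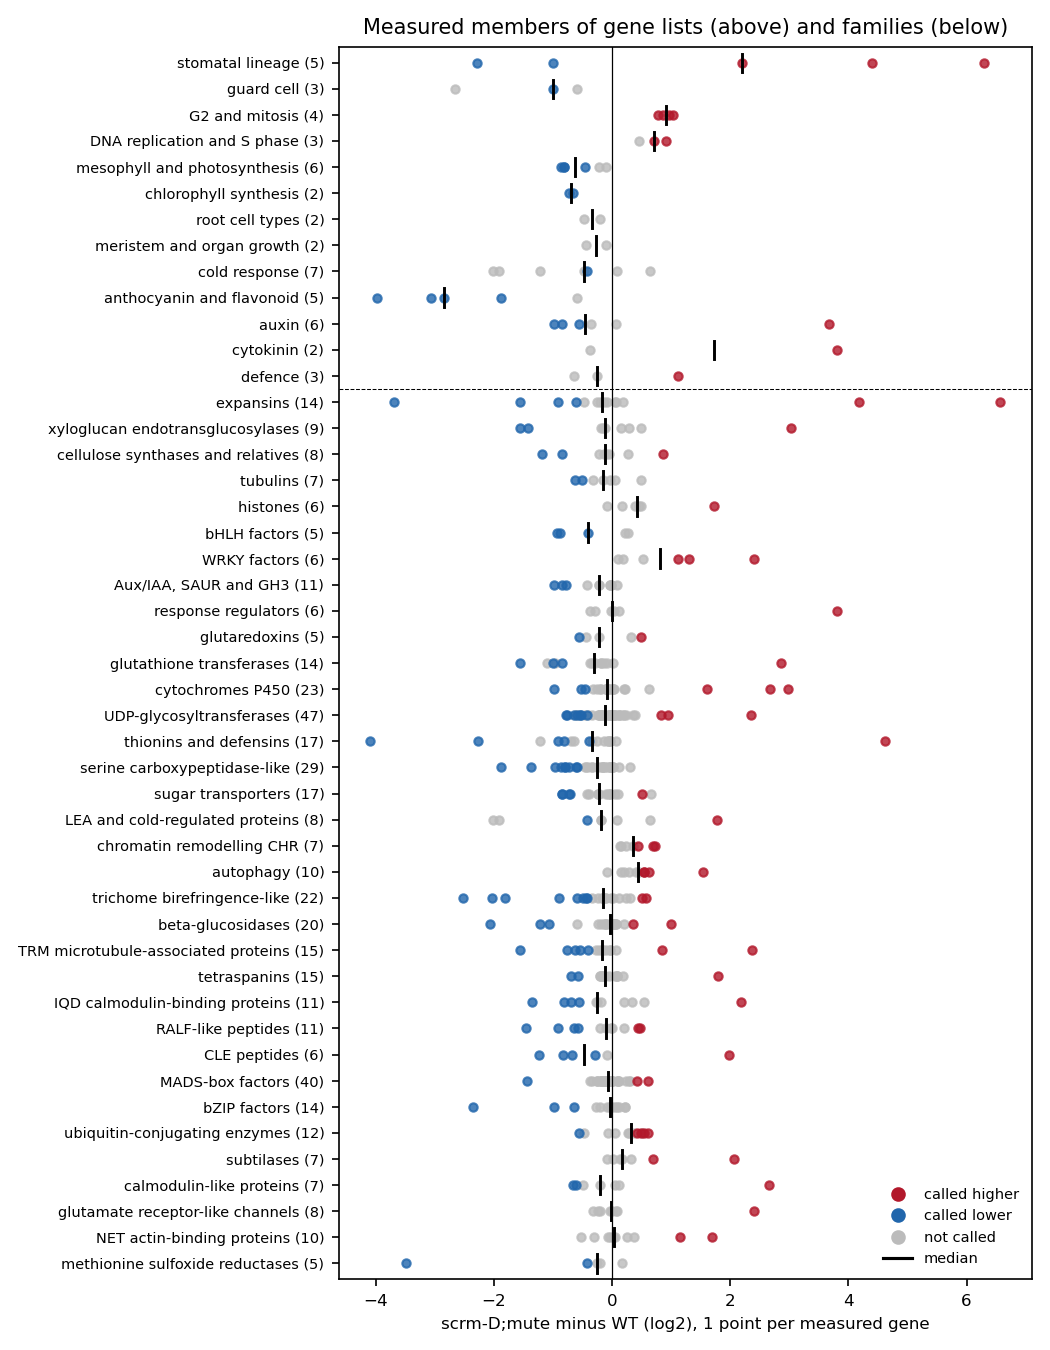
Difference (double mutant minus WT, log2) of each measured member of 13 gene lists (above the dashed line) and 34 gene families (below it), with the number measured in brackets, the median as a black bar, and called genes in red (higher) or blue (lower). All 4 genes of G2 and mitosis lie between 0.78 and 1.03, and the anthocyanin genes lie between −3.98 and −0.60.

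Several of the largest changes lay in genes without a symbol in the annotation. AT5G07260, a START domain gene, read 10.08, 10.38 and 9.93 in the double mutant, against 3.95, 3.88 and 3.85 in WT, a rise of at least 35.2-fold (difference 6.23 ± 0.12 SE, adjusted p = 1.89e-11). AT2G43620 read 10.68, 11.19 and 12.32 in the double mutant, against 5.37, 5.53 and 6.95 in WT, a rise of 43.6-fold with replicate 4 highest in both groups, and scrm-D read 11.77, 11.65 and 12.47. AT2G19980 rose at least 31.3-fold, AT1G68500 26.8-fold and AT3G26960 26.6-fold. AT3G14760 and AT2G41190 rose 25.7-fold and 25.6-fold. RSU1 (AT3G48130), listed by RefSeq as a transcribed pseudogene, rose at least 17.4-fold.

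The largest fall was that of AT1G66100, which read 5.99, 4.86 and 4.60 in the double mutant, against 11.07, 10.99 and 10.84 in WT, a fall of 56.4-fold (difference −5.82 ± 0.54 SE, adjusted p = 9.07e-06). AT2G33850 read 4.83, 4.38 and 4.05 in the double mutant, against 9.996, 9.78 and 9.67 in WT and fell at least 28.4-fold. Its scrm-D values were close to those of the double mutant, at 4.88, 5.09 and 4.37, and its spch values to those of WT, at 8.94, 9.10 and 8.27. AT3G28220 fell 12.9-fold, AT1G31690 at least 7.84-fold, AT5G33370 at least 7.41-fold, AT1G13650 at least 9.12-fold, AT1G15260 10.7-fold and AT1G29660 9.79-fold. A second probe set of AT1G31690 gave a difference of −2.33.

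Some genes separated the double mutant from every other genotype of the series. By the same fit 12.1% of the genes were called against scrm-D and 30.0% against spch, and 612 genes (4.58%) were higher in it than in each of scrm-D, spch and WT, and 210 (1.57%) were lower than in each. Among those higher, the 6 with the largest smallest difference were MUTE, AT5G07260, RSU1, AT4G28420, AT5G08460 and AT2G22320. AT2G22320 read 7.38, 8.09 and 8.30 in the double mutant, against 3.996, 3.77 and 3.88 in scrm-D, 3.66, 3.79 and 3.67 in spch and 3.82, 3.73 and 3.63 in WT, all 9 other values being under background. AT4G28420 and AT5G08460 differed by 4.56 and 3.71 from scrm-D, and AT5G07260 by 4.25.

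Among those lower in the double mutant than in each other genotype, the 6 leading genes were AT1G29660, AT3G28220, AT5G24570, AT5G12050, AT3G28270 and AT1G11410. AT1G29660 read 8.73, 8.58 and 8.29 in the double mutant, against 11.20, 11.13 and 10.76 in scrm-D, 11.77, 11.64 and 10.07 in spch and 11.81, 11.79 and 11.88 in WT. AT5G24570 read 6.90, 6.73 and 7.10 in the double mutant, against 10.11, 10.38 and 10.003 in scrm-D, 10.21, 10.16 and 10.55 in spch and 9.04, 9.29 and 9.52 in WT. These comparisons share the double mutant arrays, so they are not independent of each other.

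**Figure D5:**
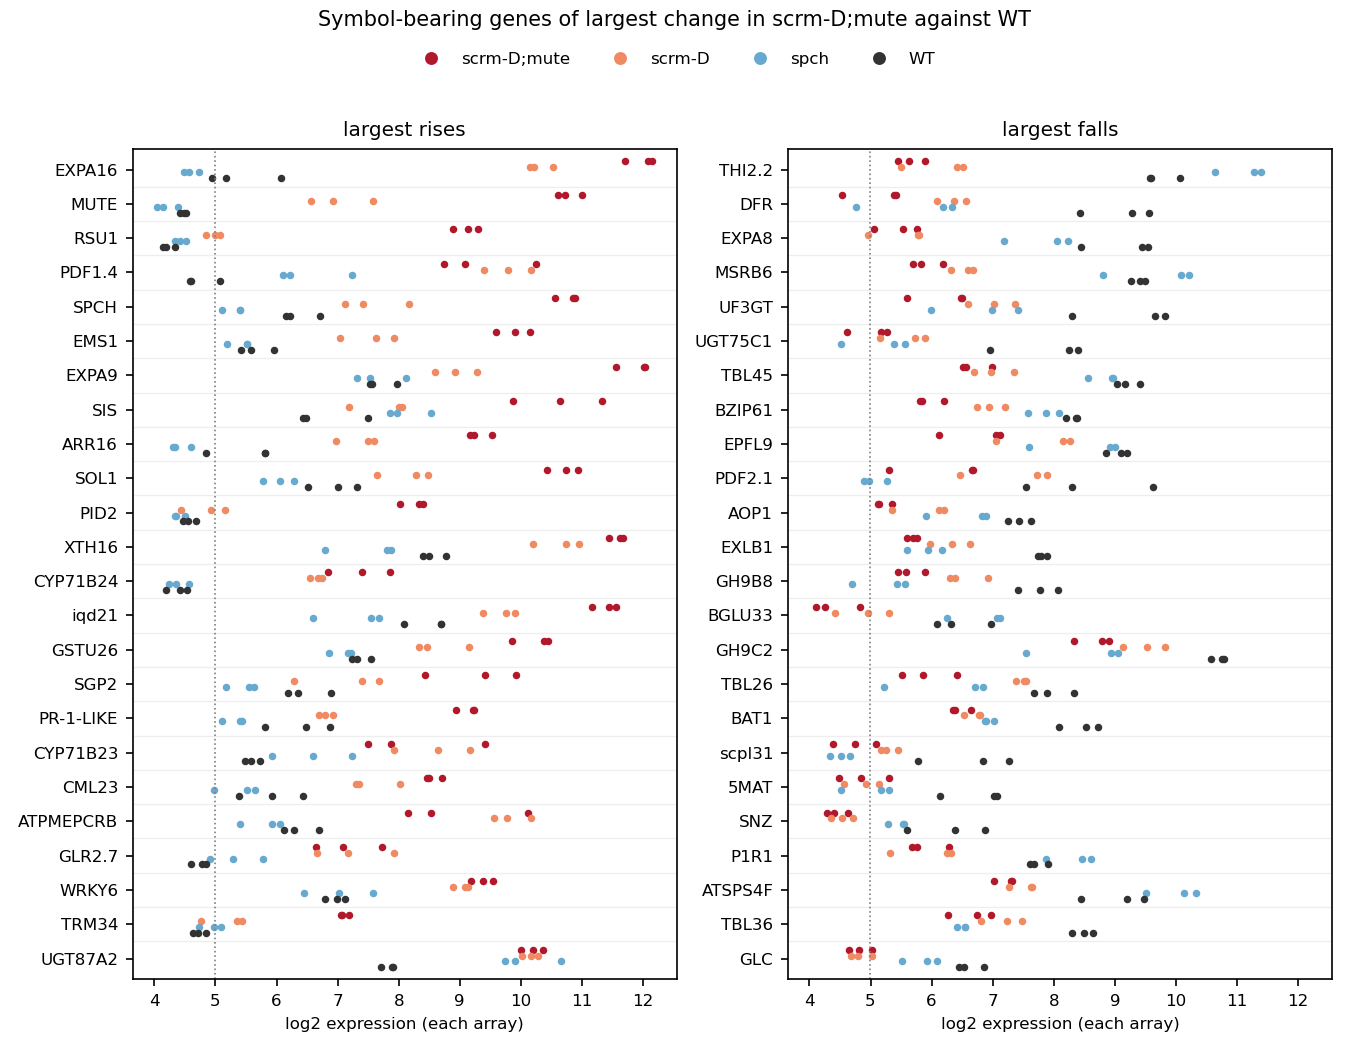
Log2 expression on each array (1 point per array, 3 per genotype) of the 24 genes with a symbol that rose most (left) and the 24 that fell most (right) in the double mutant against WT, with the background level of 4.99 dotted. The scrm-D arrays lie between the double mutant and WT for MUTE, SPCH, EMS1, ARR16 and SOL1. Among the rises the scrm-D arrays overlap the double mutant arrays for PDF1.4, CYP71B23, ATPMEPCRB, GLR2.7 and UGT87A2, and for UGT87A2 the spch arrays do so too. Among the falls the scrm-D arrays overlap them for many genes, such as THI2.2, EXPA8, 5MAT, SNZ, P1R1 and GLC. They do not for others, such as DFR, MSRB6 and UF3GT.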

How the data were processed

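Total RNA of whole seedlings was primed with oligo-dT, labelled with biotin and hybridised to Affymetrix arrays, per the labels' protocols, so 3′ ends are read. The deposited values are log2 expression per probe set, made by the authors with RMA (which corrects background and quantile-normalizes arrays together) and limma, per the submitters' processing notes, which give no versions, and they range from 3.13 to 14.63. The sources used here name no genome build, and no coordinates are printed. Array medians lay between 6.39 and 6.53, so differences are relative to a total held constant, and across probe sets arrays of 1 genotype correlated with r from 0.986 to 0.995. Double mutant and WT arrays correlated with r from 0.952 to 0.957. With the scrm-D arrays, r was 0.960 to 0.971 for double mutant replicate 2, 0.965 to 0.974 for replicate 3 and 0.973 to 0.976 for replicate 4.

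Groups came from the titles. For scrm-D the title and genotype were followed where the description field differed. From the deposited table, 22746 probe sets without controls entered limma 3.58.1 (R 4.3.3), 1 mean per genotype over all 12 arrays (prior degrees of freedom 4.41), with two-sided tests. Nothing says what separates the biological replicates, so the spread behind the p-values may be technical in part. On data simulated at this size, the fit recovered 94 of 100 changes of 1 log2 unit and 100 of 100 of 2 units, with 13 false calls. The simulated noise was independent, without array or replicate effects, and far fewer probe sets were changed than were called here. It therefore checks the code and does not measure the reliability of the calls in the real data.

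The platform annotation pairs 13513 probe sets with 1 gene and 503 with several. The other 8730 are unnamed here, and 2849 of them were called. Of the 13513, 13436 matched a RefSeq TAIR10.1 locus. A gene with several probe sets took the one of highest mean, which left 13350 genes. Only 1556 of these carried a symbol other than a locus name, and families by symbol pattern draw on such symbols. The members, the 21 lists (53 of 373 distinct genes measured, and none for vasculature, brassinosteroid and gibberellin, abscisic acid and starvation) and 61 families by symbol pattern, 34 of them with at least 5 genes, were chosen with earlier results of these data known. Named were the 12 largest rises and falls, the 6 genes most above and most below all other genotypes, list members (all up to 6, otherwise the 4 of lowest adjusted p), 3 called genes per family and the lineage factors. The 24 largest changes each way among genes with a symbol and 7 others were added after values were seen. Measured lists not described above gave no call with all arrays: TRY for trichomes (−0.15), GI for the clock (−0.51), and CLV3 and LAS for meristems (−0.10 and −0.45). Alternatives were arrays left out, the replicate number as a block, a mean of at least 6, quantile normalization, median centring, a prior variance trend, array weights, the 6 arrays alone and the 25S covariate. Leaving out replicate 4 of every genotype was added after seeing the data.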

Additional observations from a re-analysis of the deposited data

Results flagged for a closer look

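The effect of the double mutant against WT and that of spch against WT were opposite in sign and both called by limma for 23 of the genes named. The WT arrays are shared, so each difference equals double mutant minus spch on the log2 scale. It was above 0 for PRL (1.36), AUR3 (1.50), UBC20 (1.62), BUB3.1 (1.78), AUR2 (2.15), AUR1 (2.29) and TET2 (2.49). It was also above 0 for 3xHMG-box2 (2.88), SBT1.3 (2.89), PR-1-LIKE (3.81), XTH16 (4.08), iqd21 (4.12), SOL1 (4.66), ARR16 (4.90), SPCH (5.46), AT3G26960 (6.36) and EXPA16 (7.38). Below 0 were THI2.2 (−5.44), AT5G24570 (−3.40), ATSPS4F (−2.78), CML30 (−1.88), TET5 (−1.36) and ROXY2 (−1.01). For FAMA and AT5G24570 the double mutant lay below WT and scrm-D above it, with a difference between the 2 effects of −3.66 and −3.25. The genes were picked for 2 calls of opposite sign, so the test of the difference adds no support. The double mutant call of CML30 ended with the 25S covariate and without replicate 4 of every genotype (adjusted p = 0.0502 to 0.062), and that of ROXY2 also without WT replicate 4 (adjusted p = 0.0533 to 0.0645). Groups of 3 arrays are too small for an outlier test.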

How the results depend on the processing

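With the 25S rRNA value as a covariate, 3736 probe sets were called in place of 6297, 1759 higher in place of 3208 and 1977 lower in place of 3089, and 25 calls of named genes were lost. The cause was not tested. Leaving out 1 array, or replicate 4 of every genotype (added after the data were seen), gave 4881 to 6570 calls, 2346 to 3335 higher and 2467 to 3235 lower, with fewer arrays in the fit. Replicate numbers were not taken as pairs in the main fit. Deviations from the genotype means correlated with r = 0.0826, 0.130 and 0.250 for arrays of the same number, all above 0. For the others r ran from −0.172 to 0.0915. Whether arrays of the same number share a batch was not tested. With the replicate number as a block 7219 probe sets were called, 3728 higher and 3491 lower, no named call was lost, and 7 named genes gained one, COR15A, COR15B, UGT78D2, GC1, ARR15, LAS and COR27 (adjusted p = 0.000723 to 0.0476). Of 161 called genes named, 127 kept direction and call under all 16 alternatives that could test them, 34 lost the call in at least 1, and none of the 181 named genes with a call turned its direction. Of the 20 named genes without a call, 12 gained one in at least 1 alternative, namely those 7 and BLUS1, CENH3, GI, RCA and YUC4. Centring on array medians gave 2528 higher and 3568 lower, and a further quantile normalization 2946 and 3149. Genes with a mean under 6 were not tested under the filter on low values. Signal near the background of 4.99 limits the folds of low genes, control probe sets without their transcript read up to 6.61, and only 3 arrays a group were available.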
